A study of Homo sapiens with 2 samples.

Results

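Mismatch repair and the excision pathways for damaged bases and bulky lesions were represented by 31 human genes in a comparison of irradiated with untreated breast cancer cells. A gene was taken when a chip probe carried its current or former symbol and its spot was not marked as poor. Thus 30 of the 31 genes were measured, with 37 probes, out of 19356 named genes with a usable probe, while XPA had no probe. MDA-MB-231, an established human line of triple-negative breast cancer, was grown on Matrigel as a 3D laminin-rich extracellular matrix culture (3D lrECM). The untreated culture (0 Gy) gave 1 array, and a culture given radiation of 2 Gy on each of 4 days gave the other. No other agent is named for either culture, and the sources used here do not give the time from the last dose to RNA extraction. Each condition had a single array. Hence there was no replicate, no test and no SD, so that every ratio below is irradiated over untreated for these 2 arrays, and condition and array cannot be told apart. Fewer cells with a transcript and less transcript per cell cannot be told apart either, since each array measured a whole culture.

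The 3 pathways share a logic of finding an abnormal stretch of DNA, removing it and filling the gap. In mismatch repair, MutS dimers bind a mispaired base or a small loop left by replication, and MutL dimers then direct removal of the new strand. In base excision repair, a DNA glycosylase cuts out a single altered base, such as the oxidised guanine that ionizing radiation produces, after which an endonuclease, a polymerase and a ligase restore the strand. In nucleotide excision repair, a bulky lesion is recognised, the helicases of TFIIH open the helix around it, and a pair of nucleases cuts out a short strand.

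The labelled cell line was checked against marker genes. VIM, CD44, CAV1, AXL and MSN, markers of mesenchymal breast cancer lines, were detected on both arrays, and ESR1 and PGR, the hormone receptors that define receptor-positive tumours, were not detected on both. The luminal genes CDH1, GATA3, FOXA1 and KRT18 were also detected. Among immune, endothelial and fibroblast markers, PTPRC was not detected on both arrays, while each of the others had a probe detected on both. CD14 read 358 and 281 and PDGFRB 99.2 and 39.6. CD3E, PECAM1, CDH5, VWF, COL1A1 and COL1A2 read no more than 34.7. The irradiated array was dimmer, with a median gene probe of 51.9 against 57.9 for the untreated array. A probe counted as detected when its spot was brighter than 95% of the blank spots on the same array (above 14.2 and 16.0). Most gene probes passed that cutoff, 93.4% (untreated) and 91.5% (irradiated), so detection alone cannot tell cell types apart. On both arrays, 17778 genes were detected through 22069 of the 24456 usable gene probes. All 37 repair probes were among them, from an untreated intensity of 17.0 for the dimmer ERCC6 probe to 2806 for APEX1. Of the 30 genes, 23 had 1 probe and 7 had 2 (DDB1, ERCC4, ERCC6, MBD4, MUTYH, NEIL1 and OGG1).

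The repair genes, like most genes on the chip, differed little between the arrays. After background correction and quantile normalization, 0 of 30 reached a ratio of 1.5 in either direction, where 0.298% of all 17778 genes did so upward and 1.01% downward. In the authors' own value table, whose ratios are wider, the counts were again 0 and 0 against 3.95% upward and 6.48% downward. No gene of the list was therefore called, and the ratios that follow are descriptions. These shares were not matched on brightness, and 27 of the 30 genes had a probe brighter than the median, against 9582 of 17778. A ratio above 1 was found for 17 of 30 (56.7%, against 55.4% of all genes), the median ratio was 1.02 (1.01 for all genes), and the values ran from 0.696 for MSH6 to 1.26 for ERCC2. On the log2 scale, 23 of 30 (76.7%) lay within 0.2 of no difference, against 79.2% of all genes.

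**Figure D1:**
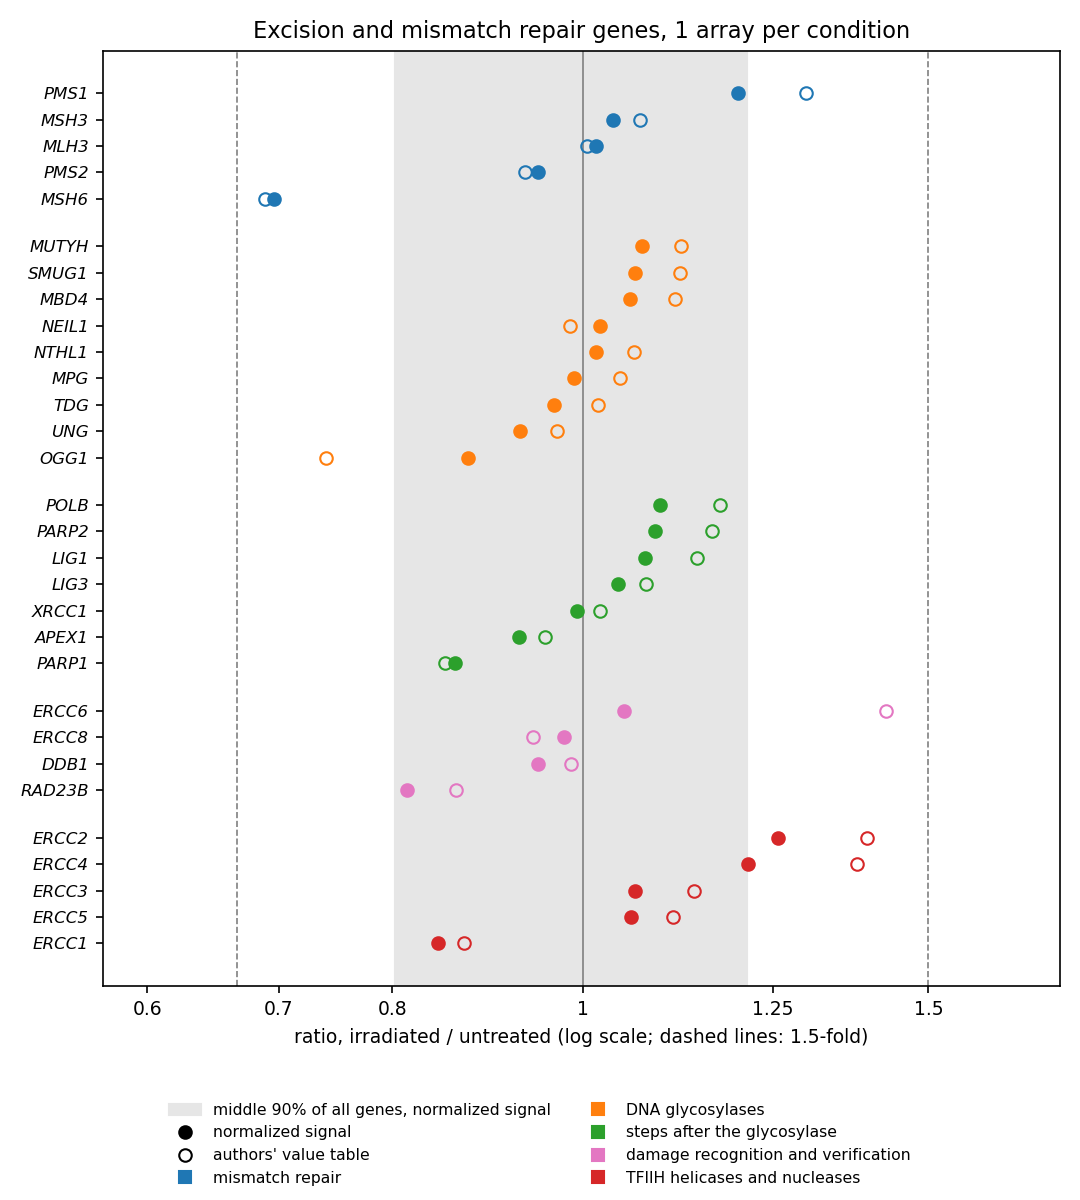
Ratio of irradiated to untreated signal (log axis) for each of the 30 repair genes, grouped by role, from normalized signal (filled points) and from the authors' value table (open points), with 1 array per condition. The grey band holds the middle 90% of all genes in normalized signal (0.803 to 1.21). MSH6 lies below it, ERCC2 and ERCC4 at or above its upper edge, and no point crosses the dashed 1.5-fold lines.

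The spread between probes was read from genes with 2 probes, each of which gave its own ratio. Over 2362 such genes the probes differed 1.09-fold in the median and 1.33-fold at the 90th percentile. For the 7 repair genes the gap was 1.01-fold to 1.22-fold, with a median of 1.04. Of the 30 genes, 9 (30.0%, against 35.0% of all genes) lay farther from 1 than the median gap. MSH6 alone lay farther than the 90th percentile gap, as did 4.06% of all genes. A gene with a single probe, as MSH6 and ERCC2 have, offered no such comparison of its own. In the authors' table the gaps were wider, 1.23-fold in the median and 1.80-fold at the 90th percentile over all genes with 2 probes. The repair pairs there reached 1.58-fold (ERCC6), and the MSH6 ratio of 0.689 stayed within the 90th percentile gap. Both probes of a gene share the same 2 arrays, so the gap leaves out differences between cultures or arrays.

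**Figure D2:**
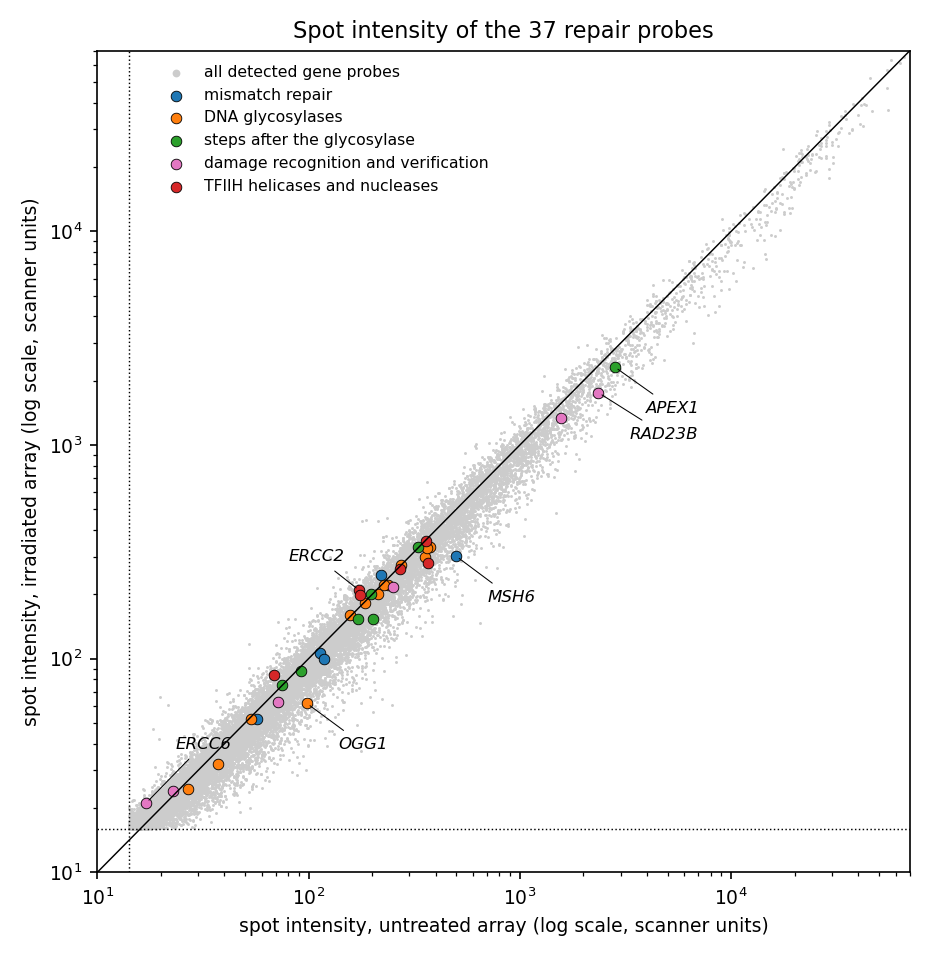
Spot intensity on the irradiated array against the untreated array (both axes logarithmic, scanner units, before any correction) for the 37 repair probes, coloured by role, over all detected gene probes in grey. The solid line marks equal intensity and the dotted lines the detection limits (14.2 and 16.0). Most repair probes follow the grey cloud, with MSH6 and the brighter OGG1 probe on its lower side and ERCC2 on its upper side.

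Among the mismatch repair genes, 3 of 5 had ratios above 1 and the median was 1.02. MSH6, which pairs with the major MutS subunit to recognise single mispairs, gave the lowest ratio of the list. Its spot read 498 in untreated and 303 in irradiated cells, a normalized signal of 511 and 356 and a ratio of 0.696 (0.689 in the authors' table). MSH3, the alternative partner that favours larger loops, stood at 113 and 107, with a ratio of 1.04. PMS1, a MutL protein whose part in human mismatch repair is less defined, gave intensities of 221 and 247 and a ratio of 1.20 (1.09 relative to neighbouring spots). Ratios above that of PMS1 were found for 13.9% of the 8420 probes brighter than the median in the first 78 columns. MLH3, a MutL subunit also used in meiotic crossing over, had a ratio of 1.02 at intensities of 56.8 and 52.3. For PMS2, the MutL subunit that nicks the new strand, the ratio was 0.949 (118 and 99.3), although related PMS2 copies in the genome may add to its signal. In normalized signal MSH6 and MSH3 thus lay on opposite sides of 1, and the MutL genes were spread from 0.949 to 1.20. Relative to neighbouring spots the MutL genes ran from 0.975 (PMS2) to 1.09 (MLH3). Relative to brighter neighbouring spots only, MSH3 was at 0.984 and PMS1 at 1.02.

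The MSH6 spot sat in array column 88 of 104, in a region where the irradiated array was dim. Of the 2614 probes brighter than the median in the last 26 columns, 11.3% had ratios below that of MSH6. Divided by the median ratio of detected neighbours within 11 rows and 8 columns (the position correction), its ratio became 0.786, against brighter neighbours only it became 0.850, and in the authors' table against neighbours it became 0.936. It was below 1 under every way of processing that was run, between 0.663 and 0.936. Some of these ways only choose or filter probes and so repeat the main value of its single probe.

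At the other end of the list were a helicase and a nuclease of nucleotide excision repair. ERCC2 (XPD), the TFIIH helicase that opens DNA at a lesion and verifies damage, read 174 in untreated and 209 in irradiated cells, with a ratio of 1.26 (1.40 in the authors' table). It lay in column 25, where neighbours were slightly above 1, and was 1.20 after the position correction. A higher ratio was found for 7.43% of the 8420 probes brighter than the median in the first 78 columns. ERCC4 (XPF), the catalytic subunit of the nuclease that cuts 5′ of the lesion, was read by a pair of probes far apart on the chip. The probe in column 81 went from 174 to 199 (ratio 1.21) and the probe in column 36 from 69.0 to 84.2 (ratio 1.22). These ratios differed 1.01-fold, and after the position correction both probes were near 1.20 (1.19 and 1.20). ERCC1, the partner without which XPF is unstable, lay below 1, with intensities of 367 and 280 and a ratio of 0.844. Its spot in column 82 lay at the other end of the rows (row 259, against row 17 for the ERCC4 probe in column 81). A ratio below that of ERCC1 was common there, in 39.2% of the 2614 probes brighter than the median in the last 26 columns. The position correction brought ERCC1 to 0.893, and in the authors' table it moved from 0.870 to 1.01.

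The other members of this group were close to 1. ERCC3 (XPB), the second TFIIH helicase subunit, had a ratio of 1.06 at 359 and 355, and ERCC5 (XPG), the nuclease that cuts 3′ of the lesion, had 1.06 at 271 and 262. Together, 4 of the 5 TFIIH helicase and nuclease genes were above 1 (55.4% of all genes were), with a median of 1.06.

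Of the damage recognition genes, 3 of 4 were below 1, where 55.4% of all genes were above 1, and the median was 0.964. Only RAD23B lay farther from 1 than the median gap between probes of 1 gene (1.09-fold). RAD23B, which stabilises the lesion sensor of global genome repair, went from 2356 to 1758, a ratio of 0.814. Its probe in column 28 lay where neighbours hardly differed between arrays (median ratio 1.01), and the corrected ratio was 0.808. Of the 8420 probes brighter than the median in the first 78 columns, 3.61% had a lower ratio. DDB1, the adaptor of the ubiquitin ligase that marks ultraviolet lesions, gave 0.941 and 0.956 from its probes in columns 82 and 5. ERCC8 (CSA), which acts where RNA polymerase stalls at a lesion, had a ratio of 0.979 (72.1 and 62.5). ERCC6 (CSB), its partner in transcription-coupled repair, had ratios of 1.03 and 1.07 from dim probes. These read 22.9 and 17.0 in untreated cells and 24.1 and 21.1 in irradiated cells, close to the blank spots. In the authors' table the dimmer ERCC6 probe had a ratio of 1.80 and the other 1.13, which made it the only repair probe past 1.5 upward there.

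Of the 9 DNA glycosylases, 5 had ratios above 1, and all 9 lay within 0.2 on the log2 scale (0.874 to 1.07). OGG1, which removes oxidised guanine, had the lowest gene ratio of the group, and its probes differed most among the 7 pairs. The brighter OGG1 probe went from 98.0 to 61.9 (ratio 0.791) and the dimmer from 37.5 to 32.0 (ratio 0.966), both in column 95. In the authors' table the brighter probe had a ratio of 0.651, the only repair probe past 1.5-fold downward, and the dimmer 0.842. After the position correction OGG1 as a gene stood at 0.962. MUTYH, which removes adenine paired with oxidised guanine, gave 1.10 and 1.05 from probes in columns 84 and 76. NTHL1 and NEIL1, which remove oxidised pyrimidines, both had a ratio of 1.02. The NEIL1 probes gave 1.06 (186 and 182) and 0.983 (27.0 and 24.7), and the corresponding ratios in the authors' table were 1.12 and 0.863.

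For the glycosylases that act on deaminated bases, UNG, the main uracil remover, had a ratio of 0.929 (354 and 300.3) and SMUG1, which also removes uracil, 1.06 (228 and 222). TDG and MBD4, which remove thymine opposite guanine, had ratios of 0.967 and 1.06, where the MBD4 probes gave 1.08 and 1.03. MPG, which removes alkylated purines, was at 0.990 (364 and 331). Uracil, mispaired thymine and alkylated base removers were thus all within 1.1-fold of no difference.

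Among the 7 genes that act after the glycosylase, 4 were above 1 and the median ratio was 1.04. The lowest was PARP1, the nick sensor that builds poly(ADP-ribose) chains and recruits the repair scaffold. PARP1 read 202 and 153, a normalized signal of 232 and 200.1 and a ratio of 0.861. Its probe lay in column 51, near the middle of the chip, where the neighbours' median ratio was 1.01, and the corrected ratio was 0.853. A lower ratio was found for 7.34% of the 8420 probes brighter than the median in the first 78 columns. PARP2, the related polymerase, stood at 1.09 (329 and 332). PARP1 was below 1 in all 15 ways of processing that were run (0.823 to 0.861) and PARP2 above 1 in all 15 (1.01 to 1.16). Each has 1 probe, so the ways that only choose or filter probes repeat the main value and add no check.

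APEX1, the endonuclease that cuts at the emptied site, went from 2806 to 2322, a ratio of 0.928. POLB, the gap-filling polymerase, had a ratio of 1.10 (198 and 202), and XRCC1, the scaffold that holds polymerase and ligase, 0.993 (171 and 154). LIG3, the ligase bound to XRCC1, was at 1.04 (91.7 and 87.5) and LIG1, the replicative ligase, at 1.08 (74.6 and 75.1). Apart from PARP1, the genes of this group therefore lay between 0.928 and 1.10.

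The RefSeq promoters (GRCh38.p14) of the genes at both ends of the list are shown, each as the 250 bases before the gene's start and 5′ to 3′ on the gene's strand. Capitals mark the GC box GGGCGG read on either strand, the element bound by the SP and KLF family of transcription factors. MSH6 (chr2:47782895-47783144, plus strand) and RAD23B (chr9:107283029-107283278, plus strand) had the lowest ratios. ERCC2 (chr19:45370574-45370823, minus strand) and ERCC4 (chr16:13919904-13920153, plus strand) had the highest.
MSH6: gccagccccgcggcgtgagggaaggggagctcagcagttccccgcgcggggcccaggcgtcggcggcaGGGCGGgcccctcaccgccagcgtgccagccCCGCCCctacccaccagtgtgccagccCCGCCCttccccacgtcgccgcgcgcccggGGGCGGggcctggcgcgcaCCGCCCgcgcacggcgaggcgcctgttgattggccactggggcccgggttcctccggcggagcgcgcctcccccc
RAD23B: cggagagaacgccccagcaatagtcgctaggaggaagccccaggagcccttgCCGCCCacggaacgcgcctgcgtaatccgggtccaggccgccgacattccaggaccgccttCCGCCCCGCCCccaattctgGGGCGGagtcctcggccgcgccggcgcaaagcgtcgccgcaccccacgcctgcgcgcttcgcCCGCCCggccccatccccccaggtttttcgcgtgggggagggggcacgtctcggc
ERCC2: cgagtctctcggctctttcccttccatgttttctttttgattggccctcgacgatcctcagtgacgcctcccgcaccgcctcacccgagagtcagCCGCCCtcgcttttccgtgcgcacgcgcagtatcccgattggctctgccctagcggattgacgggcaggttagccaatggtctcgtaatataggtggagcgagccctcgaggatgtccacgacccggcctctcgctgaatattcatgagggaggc
ERCC4: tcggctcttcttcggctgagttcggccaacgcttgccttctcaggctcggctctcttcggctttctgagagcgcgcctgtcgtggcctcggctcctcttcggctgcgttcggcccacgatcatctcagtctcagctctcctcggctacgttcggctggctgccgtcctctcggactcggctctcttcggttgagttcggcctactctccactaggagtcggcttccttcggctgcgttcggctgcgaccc

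The MSH6 and RAD23B sequences held 5 GC boxes each, 2 of those of RAD23B sharing a base, whereas that of ERCC2 held 1 and that of ERCC4 none. Over the 29 of 31 genes with a promoter in the RefSeq table, 20 (69.0%) held at least 1 GC box, against 42.3% of all 27305 promoters of the same length. Their median GC content was also higher, at 64.4% against 58% for all promoters. The CCAAT box (CCAAT, either strand) was found in 13 of 29 (44.8%, against 33.0% of all), 3 times in ERCC2. The E2F-type letters TTTGGCGC or TTTCCCGC, either strand, were found in 2 of 29 (6.90%, MSH3 and LIG1, against 1.96% of all). The letters TTTCCCGC can share bases with a GC box, and a match is a description of the letters only. The other genes give no simple order by this count. MSH3 and LIG1 held 4 GC boxes with ratios of 1.04 and 1.08, and ERCC1, with a ratio of 0.844, held none.

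Position on the chip moved with the ratios of all genes, and the repair probes shared this. Over columns 1 to 26, 27 to 52, 53 to 78 and 79 to 104, the median ratio of all detected probes was 1.05, 1.02, 1.01 and 0.936. For the repair probes (5, 14, 9 and 9 of them, in this order) it was 1.06, 1.04, 1.03 and 0.966. The share of all probes at least 1.5-fold lower rose from 0.0541% in the first 26 columns to 4.09% in the last 26. The Spearman correlation of ratio with column was -0.476 over all detected probes and -0.335 over the 37 repair probes, which share 2 arrays. The same was seen in control spots printed repeatedly over the chip, although the sources used here do not name their target. The raw intensity ratio of Positive Control 1 had a median of 0.989 over the 6 spots in column 24 and of 0.677 over the 6 in column 102. Of the lower repair genes, MSH6, ERCC1 and OGG1 lay in the last 26 columns and RAD23B, PARP1, APEX1 and UNG outside it. Over the 22 repair genes with no probe in the last 26 columns, 13 were above 1 with a median ratio of 1.04, against 65.6% of 12948 such genes and a median of 1.03.

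**Figure D3:**
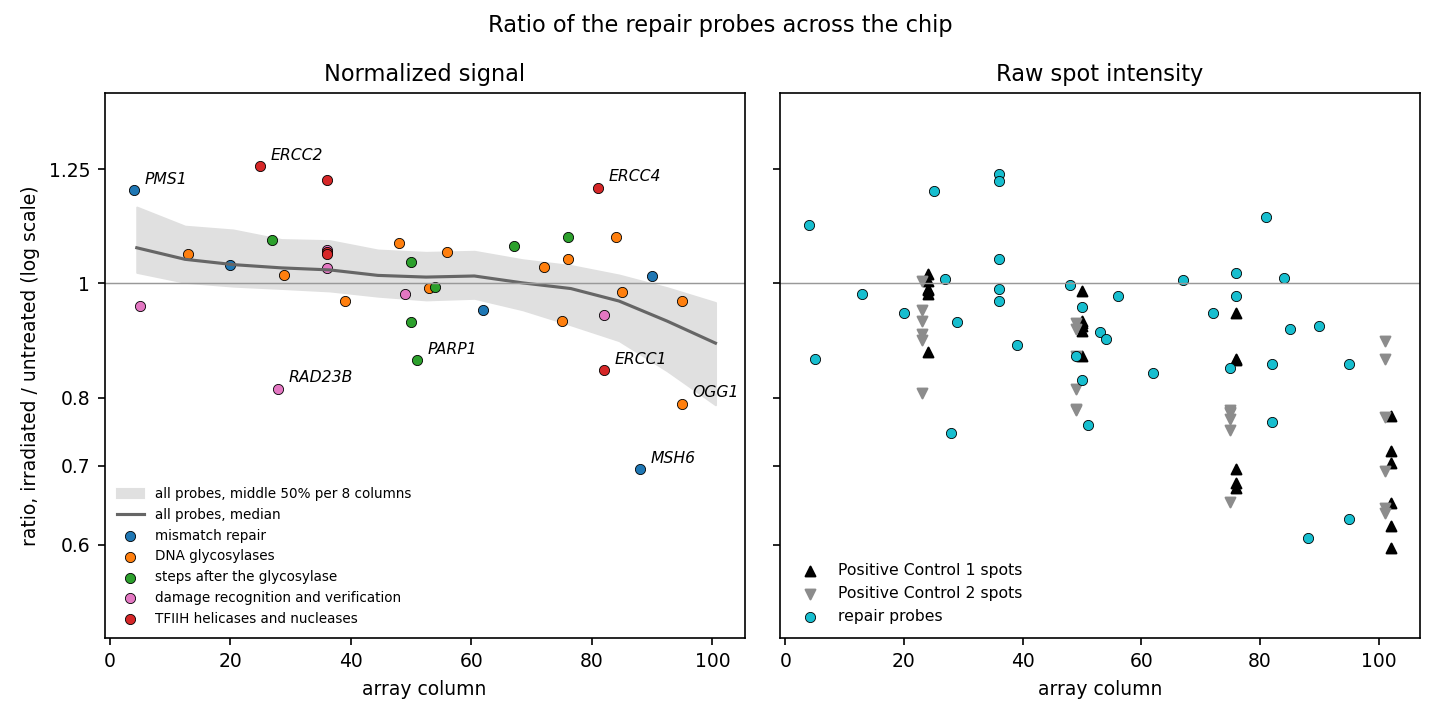
Ratio of irradiated to untreated (log axis) against array column for the 37 repair probes. On the left, normalized signal is set over the median and middle 50% of all detected probes, and on the right, raw spot intensity is set beside the repeated control spots, whose ratio falls from 0.989 in column 24 to 0.677 in column 102 for Positive Control 1. MSH6, OGG1 and ERCC1 lie in the columns where all probes are lower, and RAD23B and PARP1 do not.

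The partners of these genes in the same pathways, a list of 47 that holds replication clamp, polymerase, TFIIH and ubiquitin ligase subunits, were detected for 45. Of these, 28 were above 1 (62.2%, against 55.4% of all genes) with a median ratio of 1.04. At least 1.5-fold higher were 0 of 45, against 0.298% of all genes. Only CETN2 was at least 1.5-fold lower, against 1.01% of all genes. CETN2, a centrin that is part of the lesion-sensing complex with RAD23B as well as of centrosomes, went from 528 to 287, a ratio of 0.626 (0.640 after the position correction, 0.614 in the authors' table). RAD23B and CETN2, which join the same sensor, were thus both below 1. The next lowest were RFC1 (0.751), a subunit of the clamp loader with probes in columns 84 and 91, RPA1 (0.773), the large subunit that binds single-stranded DNA, and POLD4 (0.807), an accessory subunit of polymerase delta. The highest were PCNA (1.29), the sliding clamp, RPA2 (1.23), the middle single-strand binding subunit, and the TFIIH subunits GTF2H3 (1.22) and CDK7 (1.19).

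Within the single-strand binding complex, RPA2 at 1.23 (1024 and 1145) and RPA1 at 0.773 (480 and 330) lay on opposite sides of 1, and neither lay in the last 26 columns. The corrected values were 1.16 and 0.768. RPA3, the smallest subunit, was at 0.851. PCNA lay in column 15, and its ratio of 1.29 became 1.14 after the position correction. In TFIIH, looked at as a complex after the values had been seen, 7 of 9 measured subunits were above 1, with a median of 1.09 and a lowest value of 0.969. None of their probes lay in the last 26 columns, and 65.6% of all such genes were above 1, with a median of 1.03. After the position correction 7 of 9 were above 1, with a median of 1.04, where 50.6% of all genes were above 1, with a median of 1.001. The corrected count reuses the same 2 arrays and is no separate check. In the authors' table MSH4 (2.78, from intensities of 16.6 and 24.2 near the blank spots) and NEIL3 (1.55) passed 1.5-fold upward. CETN2 (0.614) and POLK (0.655) passed it downward. These were 2 of 45 partners in each direction, where 3.95% of all genes passed upward and 6.48% downward.

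Across the 15 ways of processing, which reuse the same 2 arrays, 7 repair genes kept a ratio above 1 wherever they had a value, namely PMS1, SMUG1, LIG3, PARP2, ERCC6, ERCC2 and ERCC5. Another 5, MSH6, APEX1, PARP1, RAD23B and DDB1, were below 1 throughout, and 18 fell on both sides. No matching share of all genes is given here, so these counts do not show whether repair genes kept a side more often than others. For a gene with 1 probe, the ways that only choose or filter probes could not change its ratio. Many of the changes of side came with subtraction of the local background around each spot. Without it, 13 genes, ERCC4 among them, were above 1 throughout, 8 below, and 9 on both sides. The last were MSH3, PMS2, NEIL1, NTHL1, TDG, MPG, XRCC1, ERCC3 and ERCC1.

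**Figure D4:**
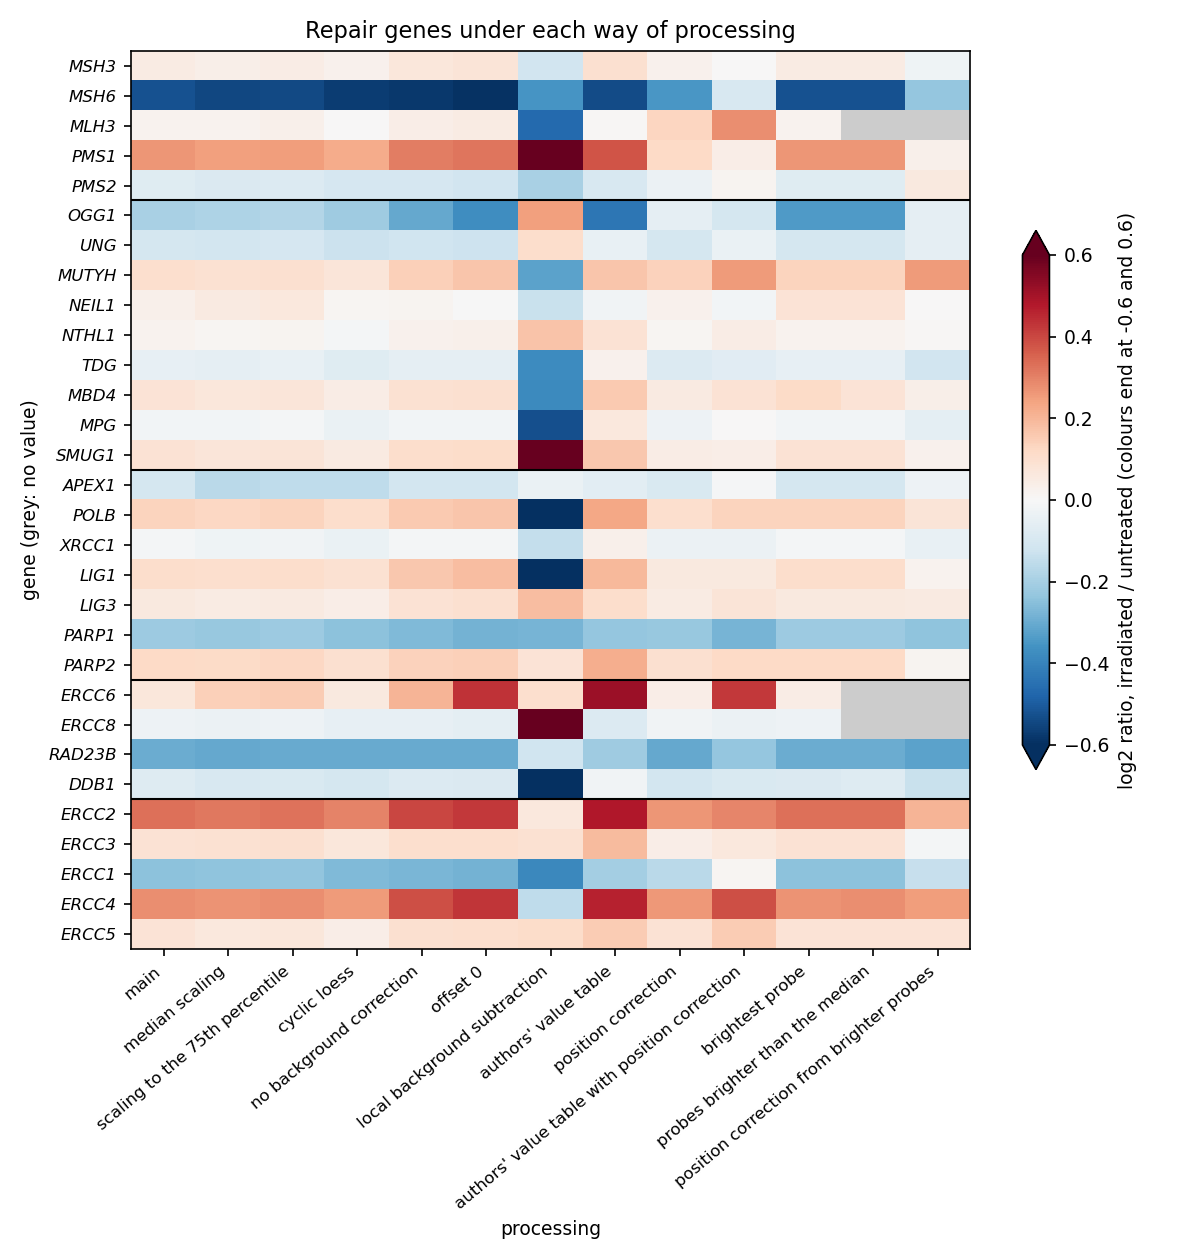
The log2 ratio of irradiated to untreated for each of the 30 repair genes (rows, grouped by role) under 13 ways of processing the 2 arrays (columns), in colours capped at the same size in both directions (grey, no value). MSH6, PARP1 and RAD23B stay blue and ERCC2 and PMS1 red in varying depth across the columns, while most other rows are pale, and local background subtraction stands apart from the other columns.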

How the data were processed

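Labelled RNA of MDA-MB-231 cells was hybridised to a 1-colour (Cy5) oligonucleotide chip, 1 array per condition. The authors deposited for each array the median spot intensity and local background on a linear scale, not normalized, and a value table of scaled intensity. That table equals spot intensity less the trimmed mean of the blank spots (12.3 and 13.7), multiplied so that the array median is 25, to within 0.485%. The sources used here do not state how the authors made it. Of 24460 gene probes, 4 marked as poor were left out.

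Median intensities were background corrected with limma 3.58.1 in R 4.3.3 (normexp, offset 50), quantile normalized and taken to log2, and a gene was the mean of its probes detected on both arrays. The offset draws the ratios of dim spots toward 1. With 1 array a group no test was possible, and a call was a ratio of at least 1.5-fold, the threshold of the study. The position correction subtracts the median log2 difference of detected probes within 11 rows and 8 columns. The scripts used Python 3.11.15, numpy 2.4.6 and pandas 2.3.3 and were tested on simulated data.

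Probe names came from the platform annotation (21707 probes) or the scanner file (965), updated through the GRCh38.p14 RefSeq table, and 1788 stayed unnamed. Values were given for every gene of the list, with the 3 highest and 3 lowest of each role, probes past 1.5-fold, and pairs over 1.3-fold apart in full, and for up to 4 pathway partners in each direction. RPA3 and the TFIIH count were added after the values had been seen. The genes and lists were chosen with earlier results of these data known, and some genes of these pathways are not reported here. Alternatives were median and 75th percentile scaling, cyclic loess, no background correction, offset 0, local background subtraction, the authors' table, the position corrections, the brightest probe, other detection filters and a 2-fold rule. The position correction from brighter probes was chosen after seeing the data.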

Additional observations from a re-analysis of the deposited data

How the results depend on the processing

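Of the 30 repair genes, 0 passed 1.5-fold in either direction under every alternative run except offset 0 and subtraction of the local background. With offset 0 in place of 50, 1 gene was at least 1.5-fold lower (MSH6, at 0.663), as were 820 of all 17778 genes. With local background subtraction 3 were higher (SMUG1 2.09, PMS1 1.79 and ERCC8 1.57) and 3 lower (POLB 0.0283, DDB1 0.0604 and LIG1 0.262), the median log2 difference was -0.128, and 12 of 30 were above 1. Under that setting 3021 of all genes passed 1.5-fold upward and 3040 downward, and 2 repair probes were not above their local background, so that those ratios hold a floor of 1. Elsewhere the median log2 difference ran from 0.00098 to 0.0757 and the number above 1 from 14 of 27 to 19 of 30. MSH6 moved most with position, from 0.696 to 0.786, 0.850 and 0.936, and the cause was not tested. No replicate could be left out with 1 array per condition. No paired analysis was possible because each condition has a single array and the labels give no replicate numbers. Precision is limited by the number of arrays, and spots near the blank level, such as those of ERCC6, carry little signal over background.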
